A study of Mus musculus with 6 samples.

Results

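Nuclear receptors are transcription factors, most of which are switched by small lipophilic ligands, and 31 genes of the family are described here in osteoblasts, the bone-forming cells, of the mandible (lower jaw) and the tibia (shin bone) of the mouse. The genes were taken by name from a list of family members found in the deposited table, by a rule with no threshold on a measured value, although earlier results of these data were known when the list was made. They are 31 of the 19679 gene symbols of that table. Of the 31, 21 had a mean level of at least 0.5 RPKM (RNA reads scaled by transcript length and by the number of mapped reads) over the 6 libraries and were tested between sites among 12752 genes that met the same condition. The 10 genes below it are described by their values only.

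Both groups were osteoblasts of mice 9 days old with the genotype label Col1a1*2,3-GFP, which puts green fluorescent protein under a piece of the type I collagen promoter. The groups differed in the bone, with 3 mandible libraries and 3 tibia libraries. Per the labels' protocols, each of 3 dissections pooled about 50 mice, and fluorescent cells were sorted after collagenase digestion. Between 2 and 8 ng of RNA entered a low-input cDNA kit. The study compared transcription factors of osteoblasts between the bones. Values come from pools, so the spread described below is between 3 preparations of each bone and not between mice. The same promoter fragment is known to be active in odontoblasts, the dentine-forming cells of the tooth.

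Many nuclear receptors work as pairs with a retinoid X receptor on short DNA elements. Without ligand several of them hold corepressors, and ligand exchanges these for coactivators. In bone, the receptors for vitamin D, glucocorticoid, oestrogen, thyroid hormone and retinoic acid are best known for carrying hormonal signals to osteoblasts. The NR4A receptors differ from these: no hormone is known to be required for their action, and their amount is set by rapid transcription after stimuli such as parathyroid hormone, in part through cAMP response elements in their promoters.

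A promoter window of each NR4A gene is shown because this subfamily held the most abundant member and because Nr4a1 and Nr4a2 were lowest at both sites in the same dissection. Each sequence is the 250 bases before a transcription start that RefSeq gives on GRCm38.p6, read 5′ to 3′ on the strand of the gene. The core of the cAMP response element is in capitals, written TGACG on 1 strand and therefore CGTCA on the other. The windows are chr15:101266596-101266845 on the plus strand for Nr4a1, chr2:57124004-57124253 on the minus strand for Nr4a2 and chr4:48045055-48045304 on the plus strand for Nr4a3. The Nr4a1 window lies inside the span of its gene, which begins at 101253902, and most of the Nr4a3 window lies inside its gene, which begins at 48045078. Sequence before the first base of these 2 genes was not searched as such.
Nr4a1: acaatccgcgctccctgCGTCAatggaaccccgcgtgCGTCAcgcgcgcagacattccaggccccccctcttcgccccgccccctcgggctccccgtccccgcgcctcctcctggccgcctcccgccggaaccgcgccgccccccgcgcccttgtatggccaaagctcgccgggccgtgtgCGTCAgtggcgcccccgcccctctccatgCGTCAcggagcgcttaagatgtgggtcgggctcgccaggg
Nr4a2: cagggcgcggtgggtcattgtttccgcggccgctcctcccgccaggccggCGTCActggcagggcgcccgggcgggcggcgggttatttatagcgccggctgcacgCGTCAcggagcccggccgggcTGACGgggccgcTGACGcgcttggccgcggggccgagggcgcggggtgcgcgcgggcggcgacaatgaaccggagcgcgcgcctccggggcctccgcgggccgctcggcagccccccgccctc
Nr4a3: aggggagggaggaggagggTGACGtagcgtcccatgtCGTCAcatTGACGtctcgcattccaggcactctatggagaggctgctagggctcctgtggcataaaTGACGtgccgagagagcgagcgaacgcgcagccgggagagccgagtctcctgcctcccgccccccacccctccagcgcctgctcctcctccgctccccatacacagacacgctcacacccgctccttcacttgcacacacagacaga
Each of the 3 windows held 4 matches to the core, none overlapping another. Of 32851 promoter windows of the same length and build, 17.8% held at least 1 match and 0.137% held at least 4. The full palindrome TGACGTCA was in none of the 3 windows and in 1.55% of all. The hormone element AGGTCA, the unit that many nuclear receptors bind, was searched on both strands and was in none of the 3 and in 14.0% of all. The 29 member genes in the table had 46 such windows, of which 12 held the cAMP element core and 5 held AGGTCA. A match describes the letters of the window and not the binding of a factor.

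The labels of the cells were checked first. The 8 osteoblast markers summed to between 53627 and 63542 RPKM in mandible libraries and to between 57744 and 66216 RPKM in tibia libraries, and none of them passed the test on site only. With the dissection number as a block, Col1a1 and Col1a2, the type I collagen genes, fell in mandible by 0.55 (adjusted p = 0.0310) and 0.51 (adjusted p = 0.0376), and Ibsp, the bone sialoprotein gene, rose by 0.66 (adjusted p = 0.0192). Markers of other cells were present too. The ameloblast markers, genes of the enamel-forming cells, summed to 513 to 2183 RPKM in mandible against 6.73 to 9.79 RPKM in tibia, and Schwann cell markers summed to 174 to 216 RPKM in mandible against 69.9 to 102 RPKM in tibia. Endothelial markers summed to 45.6 to 56.0 RPKM in mandible against 83.5 to 149 RPKM in tibia. Markers of myeloid cells and osteoclasts summed to 1272 to 6729 RPKM in mandible and 1483 to 6629 RPKM in tibia. Of these, S100a8 was at 3140 (mandible) and 3068 RPKM (tibia) in dissection 3 against 160 to 448 RPKM in the others. Csf1r of the same list overlapped, at 24.4 and 23.2 RPKM against 21.6 to 30.8 RPKM. Haemoglobin transcripts took 0.717% to 4.51% of the summed RPKM in mandible and 1.87% to 9.78% in tibia. Read totals recovered from the steps of the values lay between 48.95 M and 58.0 M reads, at which 1 RPKM on a transcript of 2 kb stands for 97.9 to 116 reads. Both libraries of dissection 3 stood apart from the other 4 on the leading principal component, which held 60.9% of the variance. Their RPKM values summed to 586126 and 547950, against 374077 to 410846 in the other 4 libraries. The osteoblast sum hid shifts there. Col1a1 was at 5566 (mandible) and 7990 RPKM (tibia) in dissection 3 against 17057 to 26205 RPKM in the other 4. The osteocalcin gene Bglap and the osteopontin gene Spp1 went the other way, Bglap at 28192 and 39020 RPKM against 12670 to 18534 RPKM. In such bulk samples, fewer cells of a type and less RNA per cell cannot be told apart.

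No nuclear receptor gene passed the test between mandible and tibia. Of the 21 genes tested with limma, 0 had an adjusted p under 0.05, where 0.972% of all genes tested did, and 0 had an unadjusted p under 0.05, where 8.99% of all genes did. With the dissection number as a block, 0 passed (6.49% of all genes passed, 4.44% higher and 2.05% lower in mandible, or 2.82% and 3.32% after quantile normalization) and 6 had an unadjusted p under 0.05 (26.5% of all genes). The log2 differences, mandible minus tibia on the scale of log2(RPKM + 0.5), ran from -0.46 for Esr1 to 0.59 for Nr4a1, with standard errors from 0.17 to 0.50. Their median was 0.11, beside 0.12 for all genes tested, and 16 were above 0 and 5 below, or 10 and 11 after quantile normalization. Quantile normalization moved both medians to about 0, to -0.00 for the receptors and -0.01 for all genes. The median size of the difference, whatever its sign, was 0.21 for the receptors and 0.21 for all genes, and 11.6% of all genes differed by more than Nr4a1. The mandible value was the higher in all 3 dissections for 6 receptors (Thrb, Rxrg, Ppard, Rora, Vdr and Nr4a1), which held for 36.8% of all genes, and the lower in all 3 for Nr1h3 and Esr1, which held for 13.4% of all genes. A lack of a call does not show equal levels: the 95% interval lay within 1 log2 unit either side of 0 for 16 of the 21 genes, and for 20 with the block.

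**Figure D1:**
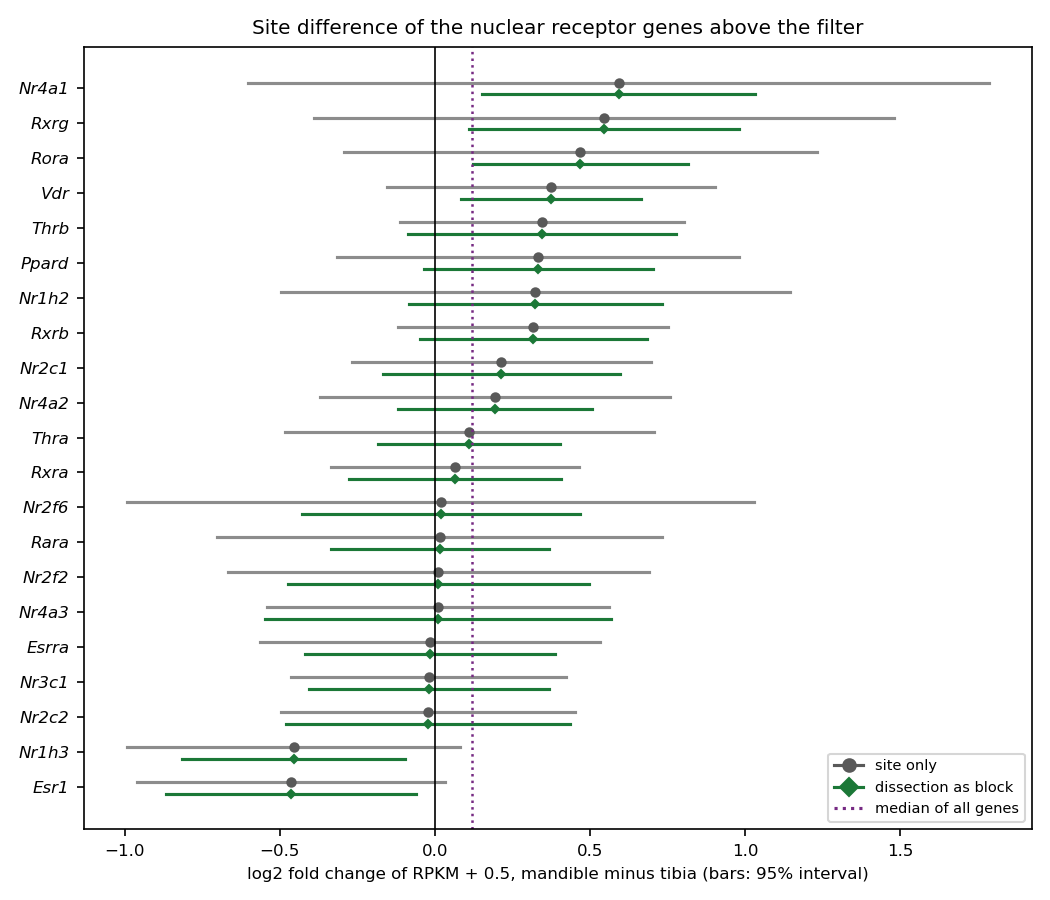
Log2 difference of RPKM + 0.5, mandible minus tibia, for the 21 nuclear receptor genes tested, with 95% intervals from the fit on site only (grey circles) and from the fit with the dissection number as a block (green diamonds). The dotted line marks the median of all genes, 0.12. The values run from -0.46 to 0.59, and no gene passed in either fit.

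The receptors differed widely in level, from 235 RPKM for Nr4a1 to 0.0055 RPKM for Pgr as means over the 6 libraries. RPKM is scaled by transcript length, so levels of different genes can be set side by side. In all, 4 genes had a mean of at least 10 RPKM, 13 lay between 1 and 10 RPKM, 4 between 0.5 and 1 RPKM, and 10 below 0.5 RPKM. By its mean Nr4a1 was gene 262 of 19679 by level. It was followed by Vdr with 34.3 RPKM, Nr1h2 with 25.5 RPKM, Nr4a2 with 11.6 RPKM, Thra with 9.33 RPKM, Rxrb with 5.94 RPKM and Nr3c1 with 5.53 RPKM. The ranges over the libraries overlapped for each pair of neighbours in this order but Nr4a1 and Vdr. The lowest library for Nr4a1 (119 RPKM) was above the highest for Vdr (44.5 RPKM), while the lowest for Nr1h2 (13.1 RPKM) was below the highest for Nr4a2 (14.7 RPKM). Those 2 values are from different libraries. Within each of the 6 libraries Vdr was above Nr1h2, Nr1h2 above Nr4a2 and Nr4a2 above Thra. The order of Thra and Rxrb and that of Rxrb and Nr3c1 changed between libraries. Of the immediate early genes named below, Fos (1617 RPKM) and Zfp36 (1021 RPKM) had higher means than Nr4a1. Fosb (178 RPKM), Egr2 (39.6 RPKM) and Dusp1 (28.6 RPKM) had lower means. The cells were sorted after collagenase digestion, and the part of this handling in the level of Nr4a1 was not tested.

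**Figure D2:**
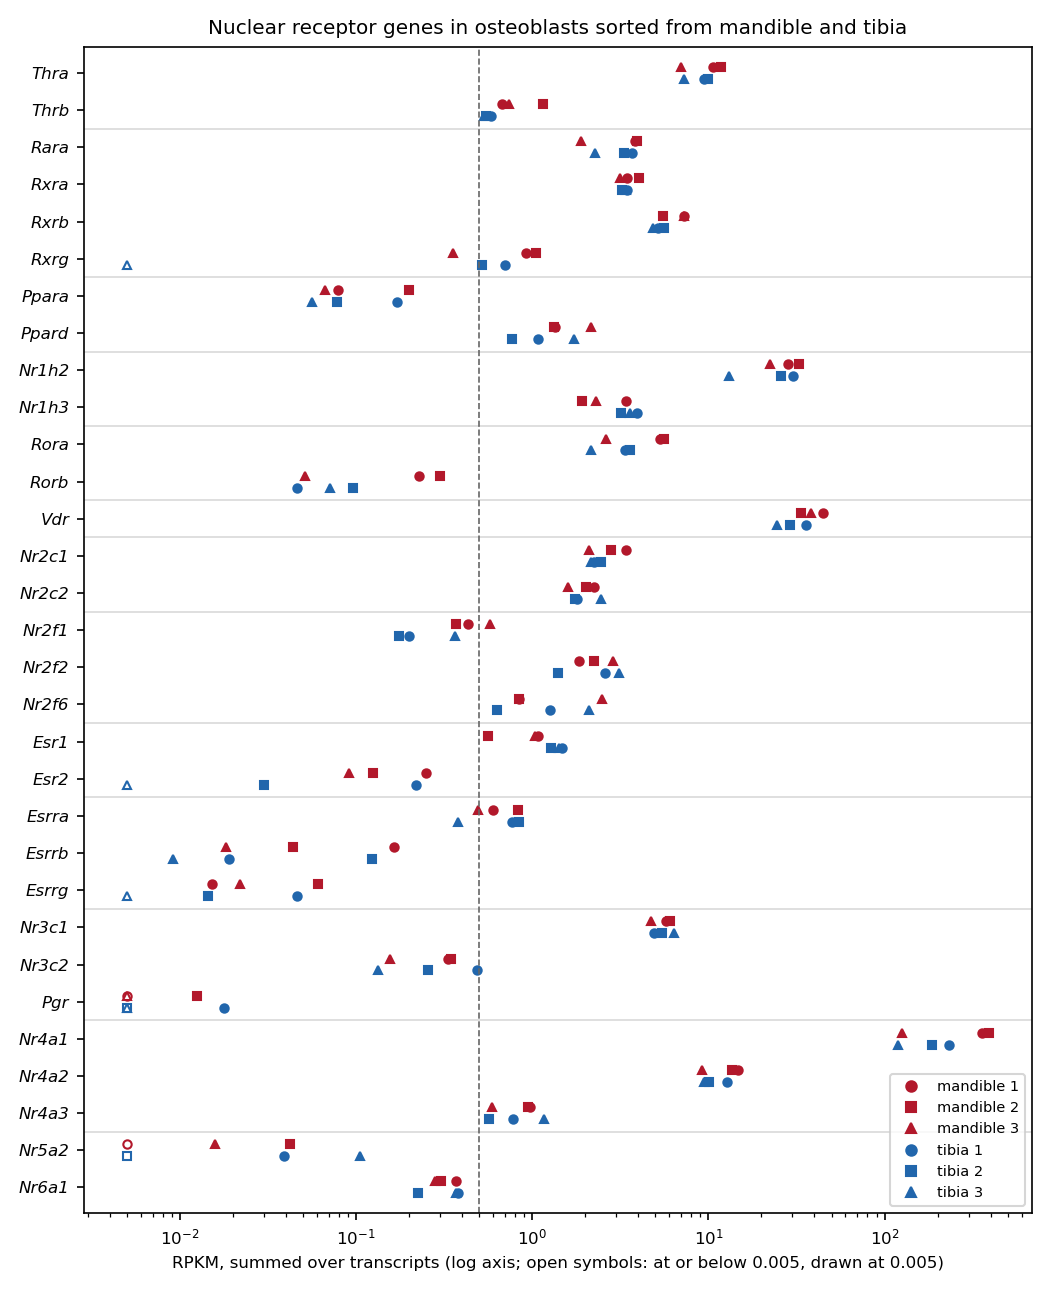
RPKM of the 31 nuclear receptor genes in each of the 6 libraries on a log axis, grouped by subfamily, with mandible in red and tibia in blue and the dissection number as the symbol. The dashed line is the mean level of 0.5 RPKM needed for testing, and open symbols stand at 0.005 for values at or below it. Nr4a1 lies between 119 and 391 RPKM in every library, and Pgr is at or under 0.0177 RPKM.

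Vdr, the vitamin D receptor (chromosome 15, 97854427 to 97908296, GRCm38), was the most abundant receptor of a circulating hormone among the 31. Its level was 44.5, 33.5 and 38.1 RPKM in mandible libraries 1, 2 and 3 and 36.0, 29.2 and 24.6 RPKM in tibia libraries 1, 2 and 3. The mandible value was the higher in each of the 3 dissections, but the ranges of the bones overlapped. The log2 difference was 0.37 (SE 0.22, adjusted p = 0.751), and with the block it was 0.37 with a 95% interval from 0.08 to 0.66 and an adjusted p of 0.116. Quantile normalization added to the block gave 0.21, with an interval that held 0 (-0.06 to 0.48, adjusted p = 0.337). Of 9 vitamin D target genes tested, 0 passed in either fit, with a median log2 difference of 0.13. The target Bglap, which encodes osteocalcin, differed by 0.08 (SE 0.63, adjusted p = 0.989), and Spp1, which encodes osteopontin, by 0.46 (SE 0.64, adjusted p = 0.952).

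The thyroid hormone receptors were carried mostly by Thra (chromosome 11, 98740776 to 98769006), which encodes the alpha receptor. Thra stood at 10.6, 11.8 and 6.94 RPKM in mandible and at 9.47, 9.93 and 7.27 RPKM in tibia. The libraries of dissection 3 were the lowest at both sites and the bones overlapped, with a log2 difference of 0.11 (SE 0.25, adjusted p = 0.970). Thra made up 90.4% to 94.8% of the summed RPKM of the pair in each library. Thra shares 263 exon bases with Nr1d1 on the opposite strand, a gene at a mean of 44.8 RPKM. Whether strand was used in counting is not stated, and without it reads of such an overlap cannot be told apart. Thrb, the beta receptor, was at 0.670, 1.15 and 0.733 RPKM in mandible and at 0.580, 0.545 and 0.532 RPKM in tibia. It was the only tested receptor whose lowest mandible library was above its highest tibia library, which held for 12.6% of all genes tested. Its log2 difference was 0.34 (SE 0.19, adjusted p = 0.721).

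Among the retinoid receptors of the family list, Rxrb had the highest mean, 5.94 RPKM, ahead of Rxra and Rara. Rarg, the gamma retinoic acid receptor, stood outside that list and had a higher mean, 12.5 RPKM. RXR proteins are the shared partners of the vitamin D, thyroid hormone, retinoic acid, PPAR and liver X receptors. Rxrb (chromosome 17, 34031812 to 34038403) was at 7.22, 5.50 and 7.27 RPKM in mandible and at 5.18, 5.60 and 4.87 RPKM in tibia, and the bones overlapped through mandible library 2, with a log2 difference of 0.32 (SE 0.18, adjusted p = 0.736). Rxra was at 3.43, 4.06 and 3.15 RPKM in mandible and at 3.44, 3.23 and 3.38 RPKM in tibia. Its log2 difference of 0.06 (SE 0.17, 95% interval -0.33 to 0.46) had the smallest standard error of the 21. Rara, the alpha retinoic acid receptor, was at 3.82, 3.91 and 1.90 RPKM in mandible and at 3.70, 3.30 and 2.27 RPKM in tibia, with dissection 3 lowest at both sites and a log2 difference of 0.02 (SE 0.30, adjusted p = 0.994). Rxrg was low and was listed at 0 in tibia library 3, with 0.923, 1.06 and 0.354 RPKM in mandible and 0.697, 0.517 and 0 RPKM in tibia. It was higher in mandible in each dissection, with a log2 difference of 0.54 (SE 0.39, adjusted p = 0.832).

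The liver X receptors, which respond to oxidised cholesterol, were carried mostly by Nr1h2, and their log2 differences had opposite signs. Nr1h2 (chromosome 7, 44549616 to 44553968) was at 28.2, 32.8 and 22.3 RPKM in mandible and at 30.4, 26.0 and 13.1 RPKM in tibia, overlapping, with a log2 difference of 0.32 (SE 0.34, adjusted p = 0.924). Nr1h3 (chromosome 2, 91184061 to 91202829) was at 3.38, 1.91 and 2.29 RPKM in mandible and at 3.95, 3.20 and 3.59 RPKM in tibia. Nr1h3 was lower in mandible in every dissection while the ranges overlapped through mandible library 1. Its log2 difference was -0.46 (SE 0.22, adjusted p = 0.658), and -0.46 with the block (95% interval -0.81 to -0.10, adjusted p = 0.119). Quantile normalization added to the block gave -0.57 for Nr1h3 (95% interval -0.93 to -0.20, adjusted p = 0.0856). The share of Nr1h2 in the pair was 91.5% ± 2.69 (SD, n = 3) in mandible and 85.3% ± 5.95 (SD, n = 3) in tibia. The bones did not overlap in this share, and the exact permutation test gave its smallest possible p of 0.1 (adjusted p = 0.9 over 45 shares). Of 13 liver X receptor targets tested, none passed on site only. Under the block 2 rose and 1 fell, where 4.44% of all genes rose and 2.05% fell. With the block Pltp, a phospholipid transfer protein, and Scd2, a fatty acid desaturase, rose in mandible by 0.75 (adjusted p = 0.0133) and 0.64 (adjusted p = 0.0303), and the cholesterol exporter Abcg1 fell by 0.95 (adjusted p = 0.0148), of which Scd2 did not pass once quantile normalization was added (adjusted p = 0.0707).

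The oestrogen receptor Esr1 was low, and lower in mandible in each dissection without passing the test. Esr1 (chromosome 10, 4611989 to 5005633), the alpha receptor through which oestrogen protects bone, was at 1.08, 0.561 and 1.03 RPKM in mandible and at 1.47, 1.28 and 1.43 RPKM in tibia. Its highest mandible library was below its lowest tibia library, the only such case among the 21, which held for 3.05% of all genes. The log2 difference was -0.46 (SE 0.21, adjusted p = 0.607), the lowest adjusted p of the 21 in the fit on site only, and -0.46 with the block (95% interval -0.87 to -0.06, adjusted p = 0.147). Leaving out a library at a time moved it between -0.57 and -0.28. Quantile normalization added to the block gave -0.58 for Esr1 (95% interval -1.01 to -0.15, adjusted p = 0.122). Esr2, the beta receptor, was below the level for testing, at 0.248, 0.125 and 0.0908 RPKM in mandible and at 0.218, 0.0301 and 0 RPKM in tibia. Esrra, an orphan relative that acts on genes of mitochondrial energy metabolism, was at 0.491 to 0.829 RPKM in mandible and 0.379 to 0.841 RPKM in tibia, with a log2 difference of -0.01 (SE 0.23). It shares 73 exon bases with Trmt112 on the opposite strand, a gene at a mean of 87.8 RPKM. Esrrb and Esrrg had means of 0.0630 and 0.0264 RPKM. Of 13 oestrogen and ERR targets tested, none passed in either fit, with a median log2 difference of 0.09.

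The glucocorticoid receptor gene Nr3c1 did not separate the bones. It was at 5.76, 6.01 and 4.70 RPKM in mandible and at 4.92, 5.42 and 6.38 RPKM in tibia. The order of the sites turned between dissections, with mandible the higher in dissections 1 and 2 and the lower in dissection 3. Its log2 difference was -0.02 (SE 0.19, 95% interval -0.46 to 0.42). Nr3c1 supplied 90.8% to 98.0% of the summed RPKM of the corticosteroid and progesterone receptors. The mineralocorticoid receptor gene Nr3c2 was at 0.156 to 0.345 RPKM in mandible and 0.132 to 0.483 RPKM in tibia, and the progesterone receptor gene Pgr was listed at 0 in 3 libraries and reached 0.0177 RPKM at most. At these totals 3 reads on a transcript of 2 kb would be 0.0259 to 0.0306 RPKM, so Pgr was at a level that counting cannot resolve. Of 15 glucocorticoid targets tested, none passed on site only. With the block 4 rose in mandible, where 4.44% of all genes rose. They were the metallothioneins Mt1 (0.71, adjusted p = 0.0392) and Mt2 (1.14, adjusted p = 0.0137), Tsc22d3, which encodes the glucocorticoid-induced leucine zipper (0.47, adjusted p = 0.0386), and the cell cycle inhibitor Cdkn1c (0.63, adjusted p = 0.0287). Of these 4, Mt2 alone still passed when quantile normalization was added to the block (adjusted p = 0.0327). Sgk1, another gene of the list, was at 104 to 172 RPKM in mandible and 141 to 207 RPKM in tibia.

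The remaining receptors with ligands or ligand-like lipids were low to moderate. Rora, an orphan receptor tied to the circadian clock, was at 5.34, 5.61 and 2.61 RPKM in mandible and at 3.36, 3.57 and 2.16 RPKM in tibia. It was higher in mandible in each dissection but overlapped between bones, with a log2 difference of 0.47 (SE 0.32, adjusted p = 0.819). With the block its adjusted p of 0.106 was the lowest of the 21 (95% interval 0.12 to 0.81). Quantile normalization added to the block gave 0.36 for Rora (95% interval 0.03 to 0.69, adjusted p = 0.186). Ppard, the delta PPAR, which responds to fatty acids, was at 1.34, 1.32 and 2.16 RPKM in mandible and at 1.07, 0.771 and 1.73 RPKM in tibia, higher in mandible in each dissection, with a log2 difference of 0.33 (SE 0.27, adjusted p = 0.874). Ppara had a mean of 0.108 RPKM and Rorb of 0.131 RPKM. Of 15 PPAR targets tested, none passed on site only, and with the block the fatty acid transporter Cd36 and the adipokine Adipoq fell in mandible by 1.12 (adjusted p = 0.00791) and 1.09 (adjusted p = 0.0438). In the fit with the block 2.05% of all genes fell. Adipocyte and stromal markers, among which Adipoq is counted, summed to 29.0 to 69.8 RPKM in mandible and 61.4 to 165 RPKM in tibia. Most of that sum was Fabp4, which is on the PPAR list too, at 22.7 to 63.5 RPKM in mandible and 52.4 to 150 RPKM in tibia. Only 4 of the 7 markers reached the level for testing. The part of these cells, and of endothelial cells, whose markers were also lower in mandible, was not tested.

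The orphan receptors without a settled ligand included the COUP-TF genes, which shape cell identity in many embryonic tissues. Nr2f2 was at 1.85, 2.25 and 2.86 RPKM in mandible and at 2.58, 1.41 and 3.13 RPKM in tibia, and Nr2f6 at 0.838, 0.846 and 2.49 RPKM in mandible and 1.27, 0.633 and 2.09 RPKM in tibia. Both overlapped between the bones, with log2 differences of 0.01 (SE 0.29) and 0.02 (SE 0.42). Nr2f1 fell below the level for testing but its bones did not overlap, which held with mandible the higher for 12.6% of all genes tested. The gap was narrow, from 0.365 RPKM in tibia library 3 to 0.368 RPKM in mandible library 2. Nr2f1 was at 0.432, 0.368 and 0.572 RPKM in mandible and at 0.201, 0.174 and 0.365 RPKM in tibia. Its share of the COUP-TF sum was 11.4% ± 2.19 (SD, n = 3) in mandible and 6.46% ± 1.45 (SD, n = 3) in tibia, again at the smallest exact permutation p of 0.1 (adjusted p = 0.9). The testicular receptor genes Nr2c1 and Nr2c2 had means of 2.53 and 1.97 RPKM and log2 differences of 0.21 (SE 0.20) and -0.02 (SE 0.20). Nr2c2 shares 3533 exon bases with Mrps25 on the opposite strand, which was at a mean of 5.03 RPKM. Nr6a1 had a mean of 0.321 RPKM and Nr5a2 of 0.0338 RPKM.

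Among the 45 shares compared, 23 of receptors within their subfamily and 22 of transcripts within their gene, the bones did not overlap in 5, which is 11.1%. Apart from the shares of Nr1h2 and Nr2f1, these were transcripts. The transcript NM_001313983 held 62.8% ± 2.94 (SD, n = 3) of Thra in mandible and 56.8% ± 3.52 (SD, n = 3) in tibia. For Rxrb, NM_001205215 held 45.4% ± 3.40 in mandible against 56.9% ± 12.5 in tibia, and NM_001205216 held 53.5% ± 3.26 against 42.6% ± 12.3 (SD, n = 3 each). The large spread in tibia came from library 3, where the former was 71.3% and the latter 28.5%. These 2 transcripts hold nearly all of Rxrb, so their shares are close to complements of each other. Some gaps were narrow: for Thra the nearest libraries were at 60.41% (mandible) and 60.33% (tibia), and for Nr1h2 at 89.29% and 89.05%. The lowest adjusted p of the 45 was 0.9, and with 3 libraries against 3 the exact permutation test cannot go below 0.1. Any share without overlap has that p of 0.1, so 11.1% of shares is near the rate without a difference. Transcript values of the same gene are estimates that divide shared reads. Within subfamilies Nr1h2 led Nr1h3, Thra led Thrb, Esr1 led Esr2 and Nr4a1 led Nr4a2 in all 6 libraries. Subfamily sums held only genes of the family list, so receptors outside it, such as Rarb, Rarg and Pparg, were left out.

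**Figure D3:**
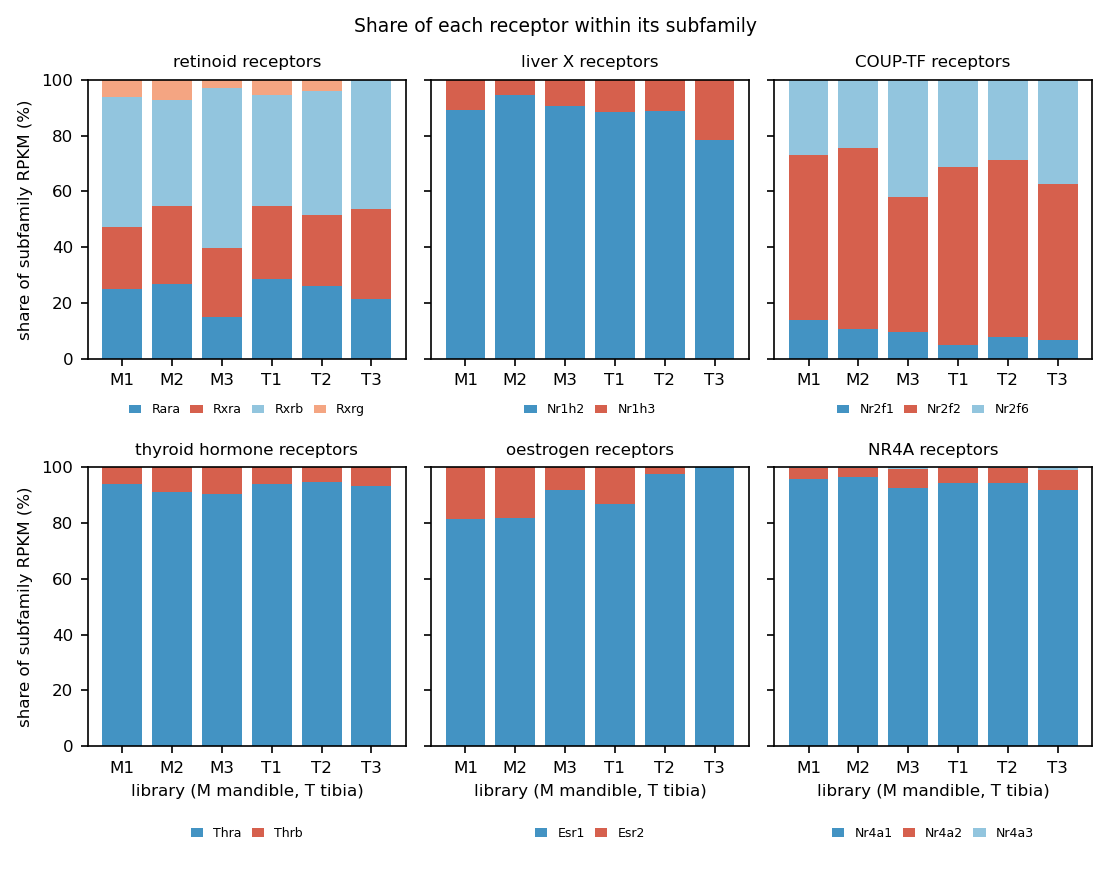
Share (%) of each receptor gene in the summed RPKM of its subfamily, counting genes of the family list only. Each library has 1 bar (M mandible, T tibia, numbers 1 to 3 for the dissection). Nr4a1, Thra and Nr1h2 take most of their subfamilies in each library, and the share of Nr1h2 is lowest in tibia library 3, at 78.5%.

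Of the NR4A receptors, Nr4a1 and Nr4a2 were lower in dissection 3 than in the other dissections at both sites. Nr4a1 (chromosome 15, 101253902 to 101274795), the gene of NUR77, was at 357, 391 and 126 RPKM in mandible and at 233, 185 and 119 RPKM in tibia. Mandible exceeded tibia in each dissection, by 0.62, 1.08 and 0.08 on the log2 scale, yet mandible library 3 was below tibia libraries 1 and 2. The log2 difference was 0.59 (SE 0.50, adjusted p = 0.878), and with the block it was 0.59 (SE 0.18, adjusted p = 0.108). Quantile normalization added to the block gave 0.43 (95% interval -0.02 to 0.87, adjusted p = 0.247). Without both libraries of dissection 3, Nr4a1 rose in mandible by 0.85 (adjusted p = 0.0267), when 5.6% of all genes passed. It was the only receptor to pass there. Leaving out a library at a time gave 0.30 to 1.11, with none passing. Nr4a2, the gene of NURR1, was at 14.7, 13.5 and 9.21 RPKM in mandible and at 12.7, 10.1 and 9.44 RPKM in tibia, with a log2 difference of 0.19 (SE 0.24, adjusted p = 0.943). Nr4a3, the gene of NOR1, was at 0.968, 0.949 and 0.593 RPKM in mandible and at 0.782, 0.570 and 1.16 RPKM in tibia, with a log2 difference of 0.01 (SE 0.23, adjusted p = 0.994). Nr4a1 held 91.8% to 96.4% of the NR4A sum. Each of the 3 windows printed above carried 4 core cAMP elements while Nr4a3 made up 0.234% to 0.897% of the sum.

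**Figure D4:**
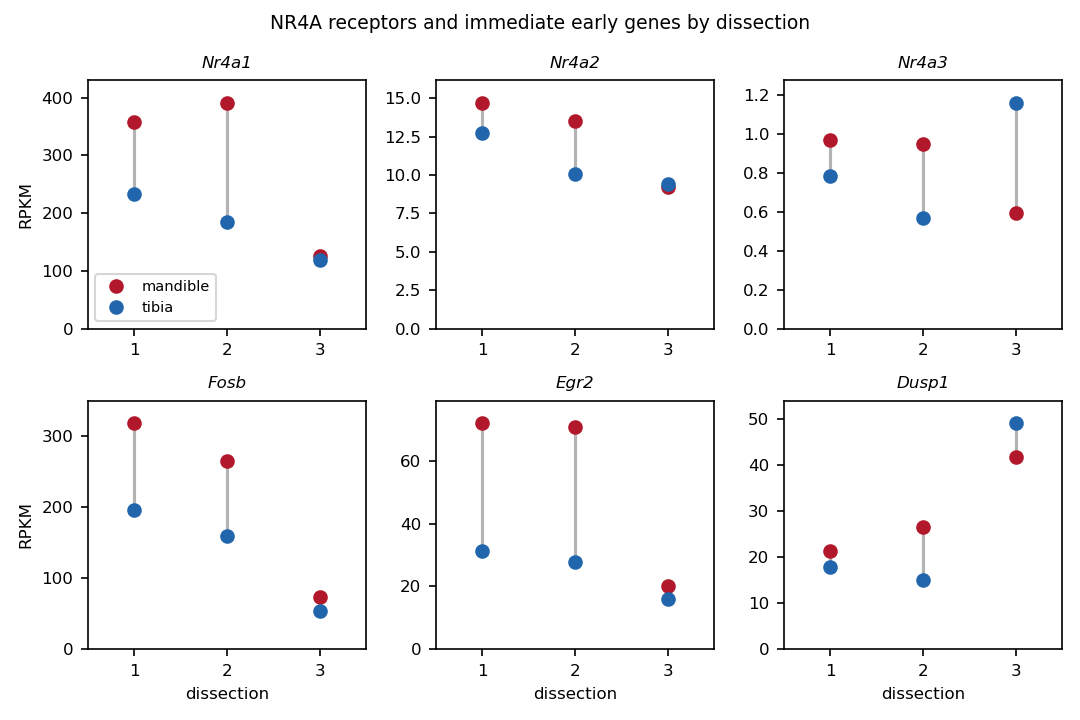
RPKM of the NR4A genes Nr4a1, Nr4a2 and Nr4a3 and of the early response genes Fosb, Egr2 and Dusp1 by dissection, with mandible in red, tibia in blue and a grey line joining libraries of the same dissection. Nr4a1 falls to 126 and 119 RPKM in dissection 3, and Dusp1 is highest there, at 41.8 and 49.1 RPKM.

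Dissection 3 lay outside the range of the other 4 libraries for 12 of the 21 receptors tested, and for 20.0% (below) and 33.4% (above) of all genes. Both of its libraries were below the 4 others for 9 receptors (42.9%), where the same held for 20.0% of all genes: Thra, Rara, Rxrg, Nr1h2, Rora, Nr2c1, Esrra, Nr4a1 and Nr4a2. Both were above for 3 receptors (14.3%), where the same held for 33.4% of all genes: Ppard, Nr2f2 and Nr2f6. The mean of dissection 3 over the mean of the others was 0.419 for Nr4a1, 0.534 for Rora, 0.603 for Nr1h2 and 0.680 for Thra, and it was 1.72 for Ppard and 2.56 for Nr2f6. Dissection 2 was above the rest for Esrra alone (3.77% of all genes) and below for none (7.27% of all genes). Dissection 1 was above or below for none, where 4.05% of all genes were above and 5.9% below. These are descriptions without a test, since a dissection is 1 preparation of each bone. Of 18 immediate early genes, which are transcribed within minutes of a stimulus, 7 were below the other libraries in dissection 3 and 3 were above. Fosb was at 72.9 and 53.3 RPKM in dissection 3 and at 159 to 319 RPKM in the others, and Egr2 at 20.0 and 15.9 RPKM against 27.7 to 72.0 RPKM. Dusp1, the phosphatase gene of the same list, went the other way, at 41.8 and 49.1 RPKM against 15.1 to 26.6 RPKM. Between the bones, none of the 18 passed on site only (median log2 difference 0.39). With the block 4 rose in mandible, where 4.44% of all genes rose. They were Fos (0.61, adjusted p = 0.0332), Fosb (0.63, adjusted p = 0.0225), Egr2 (0.95, adjusted p = 0.0447) and Zfp36 (0.91, adjusted p = 0.0105). With quantile normalization added, Zfp36 alone of the 4 passed (adjusted p = 0.0395). The markers Col1a1 and S100a8 also moved in dissection 3, as given above, and what set it apart was not tested.

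Genes that make, break down or carry the ligands of nuclear receptors were compared next. Of 25 such genes tested, 4 rose in mandible and 0 fell, where 0.87% of all genes rose and 0.102% fell. The median log2 difference was 0.26. Crabp1, which binds retinoic acid in the cytoplasm, was at 73.8, 59.8 and 62.0 RPKM in mandible and at 11.0, 13.2 and 11.7 RPKM in tibia. The groups were far apart, with a log2 difference of 2.40 (SE 0.19, adjusted p = 0.00337), and Crabp1 passed in each of the 18 alternatives tried. Aldh1a3, an enzyme that makes retinoic acid from retinaldehyde, was at 14.9, 17.0 and 7.58 RPKM in mandible and at 2.19, 2.51 and 1.799 RPKM in tibia (2.29, SE 0.32, adjusted p = 0.0278). Rdh10, which makes retinaldehyde from retinol, was at 3.25, 3.28 and 3.99 RPKM in mandible and at 1.27, 0.897 and 1.24 RPKM in tibia (1.30, SE 0.18, adjusted p = 0.0304). Dio3, the deiodinase that inactivates thyroid hormone, was at 7.92, 8.98 and 2.70 RPKM in mandible and at 0.316, 0.144 and 0.145 RPKM in tibia (3.19, SE 0.42, adjusted p = 0.0241). None of the 4 overlapped between the bones. The calls of Aldh1a3, Rdh10 and Dio3 depended on the libraries: with a library left out, Aldh1a3 and Dio3 passed only without mandible library 3 (adjusted p from 0.00642 to 0.153 and from 0.00261 to 0.129), and Rdh10 did not pass with any of the 6 left out (0.0636 to 0.165). The 3 calls were also lost with no filter on low genes (adjusted p = 0.0684, 0.0689 and 0.0677 for Aldh1a3, Rdh10 and Dio3) and when libraries were scaled without haemoglobin (adjusted p = 0.185, 0.0831 and 0.102). Aldh1a3 was lost under median-of-ratios scaling too (adjusted p = 0.0612). With the dissection number as a block, Aldh1a3, Rdh10 and Dio3 passed (adjusted p = 0.00177, 0.00702 and 0.00298). With a library left out, their log2 differences on site only stayed positive. These ran from 2.08 to 2.63 for Aldh1a3, 1.185 to 1.355 for Rdh10 and 2.90 to 3.68 for Dio3.

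With the block, 10 of the 25 rose in mandible and 0 fell, where 4.44% of all genes rose. Among the 6 further genes were Dio2, which activates thyroid hormone (1.17, adjusted p = 0.0239), the retinoic acid binding protein gene Crabp2 (0.74, adjusted p = 0.0240), Srd5a1, a steroid 5-alpha reductase (1.14, adjusted p = 0.0105), and the oxysterol enzymes Cyp7b1 (0.96, adjusted p = 0.0484) and Ch25h (1.16, adjusted p = 0.0154). With quantile normalization added, Cyp7b1 (adjusted p = 0.0843) no longer passed. Dio2 and Dio3, which act in opposite directions on thyroid hormone, thus both rose. Dhrs3, the retinaldehyde reductase gene with the highest level of the list, was at 106 to 122 RPKM in mandible and 92.2 to 117 RPKM in tibia, with a log2 difference of 0.07 (SE 0.21). The lipid binding protein gene Fabp4 had a negative difference without passing, at 22.7, 47.6 and 63.5 RPKM in mandible and 81.3, 52.4 and 150 RPKM in tibia (-1.06, SE 0.51, adjusted p = 0.641). The vitamin D enzymes Cyp27b1 and Cyp24a1 were below the level for testing.

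**Figure D5:**
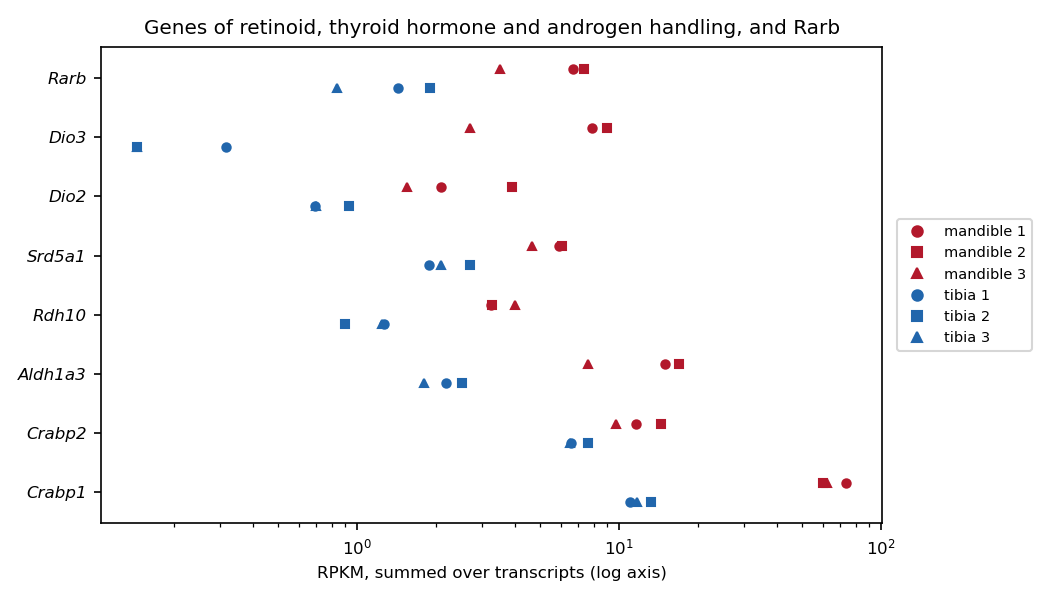
RPKM on a log axis in the 6 libraries for genes that make, inactivate or carry ligands of nuclear receptors, and for the retinoic acid receptor gene Rarb, with mandible in red, tibia in blue and the dissection number as the symbol. The bones do not overlap for any of the 8 genes; Crabp1 is at 59.8 to 73.8 RPKM in mandible and 11.0 to 13.2 RPKM in tibia.

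Among known targets of these hormones, those of thyroid hormone gave 2 calls. Of 10 tested, Dio3, which is on both lists, and the myelin gene Mbp rose on site only, and with the block Me1, malic enzyme, rose as well (0.87, adjusted p = 0.0262). Of all genes, 0.87% rose on site only and 4.44% with the block. Mbp was at 46.5, 28.9 and 29.8 RPKM in mandible and at 1.72, 2.12 and 6.47 RPKM in tibia (3.34, SE 0.46, adjusted p = 0.0268), and it passed with a library left out only without tibia library 3 (adjusted p from 0.00703 to 0.142). The call was also lost with no filter (adjusted p = 0.0689) and with the highest transcript alone (adjusted p = 0.0686). Mbp passed with the block (adjusted p = 0.00702). Mbp is also a defining gene of Schwann cells, whose markers were higher in mandible as given above, and their part in this result was not tested. Of 11 retinoic acid targets, none passed on site only and 3 rose with the block, where 4.44% of all genes rose. They were Rarb (adjusted p = 0.00201), Crabp2 and the transglutaminase gene Tgm2 (0.74, adjusted p = 0.0234). Rarb, the beta retinoic acid receptor, is a nuclear receptor outside the 31 genes and is itself induced by retinoic acid. It was at 6.65, 7.38 and 3.50 RPKM in mandible and at 1.43, 1.90 and 0.839 RPKM in tibia, without overlap, and its log2 difference was 1.73 (SE 0.34, adjusted p = 0.104 on site only).

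Of 18 further nuclear receptor genes outside the 31, 6 reached the level for testing and none passed on site only. Rarb was the only gene of the 6 to pass with the block, where 6.49% of all genes passed. Nr1d1, a haem receptor of the clock that shares bases with Thra, was at 35.3 to 61.6 RPKM in mandible and 28.6 to 42.0 RPKM in tibia (0.45, SE 0.29, adjusted p = 0.798). Rarg, the gamma retinoic acid receptor, was at 5.97 to 22.6 RPKM in mandible and 3.93 to 13.5 RPKM in tibia (0.66, SE 0.61, adjusted p = 0.900). Pparg, the receptor that drives fat cell formation, was at 1.06 to 2.42 RPKM in mandible and 1.76 to 4.46 RPKM in tibia (-0.62, SE 0.36, adjusted p = 0.736). Of 24 coregulator genes tested, 0 passed in either fit, with a median log2 difference of 0.09. The coregulators with the highest levels were the arginine methyltransferase gene Prmt1, Pnrc2, the corepressor subunit gene Hdac3 and the Mediator subunit gene Med1, with log2 differences of 0.10, 0.13, 0.36 and -0.08.

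Over all 11 lists, 146 genes were tested when each was counted once, and 5 rose and 0 fell on site only, which is 3.42% beside 0.972% of all genes. With the block 24 rose and 3 fell, or 18.5% beside 6.49% of all genes. With quantile normalization added 15 rose and 7 fell, where 2.82% of all genes rose and 3.32% fell. Without dissection 3, 28 passed, where 5.6% of all genes passed. The median log2 difference of the 146 was 0.15 beside 0.12 for all genes. Some markers of other cells rose in mandible on site only as well, where 0.87% of all genes rose. They were 4 of 5 ameloblast markers tested, 3 of 6 of odontoblasts and dental mesenchyme, 2 of 7 of epithelium and 3 of 9 of cartilage. Epithelial markers summed to 10.8 to 23.1 RPKM in mandible and 3.87 to 4.66 RPKM in tibia. Of the cartilage markers 6 were above 0, and Col10a1, the collagen gene of hypertrophic cartilage, was at 0.471 to 1.38 RPKM in mandible and 1.97 to 7.37 RPKM in tibia without passing. The odontoblast gene Dspp was at 9.53 to 70.2 RPKM in mandible and 0.0964 to 0.235 RPKM in tibia. The part of these cells in the levels of Crabp1, Aldh1a3, Rdh10, Dio3 and Rarb was not tested.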

How the data were processed

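RNA was sequenced from 6 libraries, 3 per bone. The deposited values are RPKM for each RefSeq transcript on mm10, made by the authors with Partek 6.15.1207, per the file headers. CASAVA 1.8.2, TopHat2 2.1.0 and Partek 6.6 are named in the submitters' processing notes, and whether counting used strand is not given in the sources. A second deposited RPKM table held 2166 transcripts with identical values and was not used further. RPKM does not correct for a few transcripts that take many reads.

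Transcripts (30198) were summed per gene symbol, and a gene was kept where its mean over the libraries reached 0.5 RPKM. The bones were compared by limma 3.58.1 (R 4.3.3; lmFit, then eBayes with trend) on log2 of RPKM plus 0.5, as a two-sided test with Benjamini-Hochberg adjustment over 12752 genes and a threshold of 0.05. The pseudocount understates changes of low genes. Every adjusted p of a gene is from this model unless the block or a left-out library is named. Shares were compared with an exact two-sided permutation test. The fit was tested on simulated data. Figures used matplotlib 3.10.9.

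The members, lists and tests were chosen with earlier results of these data known. All members are named. Of each list, genes passing in either fit and at most 4 others by highest mean RPKM are named. Named besides, after their values were seen, are Dusp1 as an immediate early gene, Cyp27b1 and Cyp24a1. The same holds for the markers Col1a1, Col1a2, Ibsp, Dspp, Col10a1, S100a8 and Csf1r. The result of 1 listed gene is not reported here.

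Same-numbered libraries were taken as pairs from the experiment names in the labels. Deviations from the bone means correlated at 0.594, 0.658 and 0.798 for the 3 pairs. Promoters came from a RefSeq table on GRCm38.p6, where 29 of 31 members matched, and gene positions and overlaps from the reference annotation on GRCm38.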

Additional observations from a re-analysis of the deposited data

How the results depend on the processing

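The count of receptors passing stayed at 0 in 17 of 18 alternatives and was 1 (Nr4a1) with dissection 3 left out. Of 372 recomputed receptor values, 1 passed. The sign held in every alternative for 11 receptors and turned in at least 1 for 10.

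The count of listed genes passing moved from 5 to 27 with the replicate block, 22 with the block and quantile normalization, 28 without dissection 3, 1 with no filter and 2 when scaled without haemoglobin, and ran from 1 to 4 with a library left out. The count of shares whose bones did not overlap moved from 5 to between 6 and 16 with a library left out, and 13 shares kept their sign in every dissection under the replicate block. Both counts rise by construction, since fewer libraries overlap less often and a shared sign is a weaker condition than no overlap, so neither bears on stability. Dissection 3 stood outside the rest for 12 receptors, 10 at a mean of at least 1 RPKM. The replicate block changed no call of a receptor.

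Signs turned to negative under quantile normalization, with or without the block, for Thra (-0.00458), Rara (-0.0946), Rxra (-0.0451), Nr2f2 (-0.0982), Nr2f6 (-0.0796) and Nr4a3 (-0.0993). Median-of-ratios scaling gave -0.0190, -0.101, -0.0540, -0.0986, -0.0741 and -0.0664 for the same genes, and scaling without haemoglobin gave -0.00487, -0.0834, -0.0401, -0.0883, -0.0747 and -0.0404. With the highest transcript alone Nr2f2 was -0.37 and Nr4a3 -0.000842. Without dissection 3, Nr2c2 was 0.21, Nr3c1 0.17 and Nr2f6 -0.0763. With a library left out, the values ran from -0.0331 to 0.33 for Thra, -0.16 to 0.30 for Rara, -0.0243 to 0.14 for Rxra, -0.0342 to 0.56 for Nr1h2, -0.11 to 0.10 for Nr2c2, -0.26 to 0.21 for Nr2f2, -0.37 to 0.31 for Nr2f6, -0.20 to 0.10 for Esrra, -0.10 to 0.0794 for Nr3c1 and -0.14 to 0.18 for Nr4a3. The cause was not tested.

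The number of pools, 3 per bone, limits the precision, and the 10 receptors below 0.5 RPKM were not tested.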
